A study of Mus musculus with 6 samples.

Results

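The genes around Cd44 on mouse chromosome 2 were examined in alveolar macrophages (AMs) from CD44+/+ and CD44-/- mice. A gene was included when the midpoint of its deposited locus lay within 10 Mb of the midpoint of Cd44 and its mean over the 6 samples was at least 0.5 FPKM, with Cd44 itself left out. FPKM is a fragment count divided by the transcript's length and by the size of the library. Of the 24341 genes in the deposited table, 140 lay in this window and 43 of them reached the expression limit, 15 before Cd44 and 28 after it in the numbering of the chromosome. All 43 matched a GENCODE gene, of which 42 are annotated as protein coding. The same limit was reached by 10800 genes in all, with Cd44 among them.

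AMs were obtained by lavage of the airspaces of female C57BL/6 mice aged 6 to 10 weeks, followed by lysis of red blood cells. The CD44+/+ group carries the intact gene, the CD44-/- group lacks CD44 by genotype, and no treatment of the mice is given for either group. Each genotype had 3 samples, and each sample was RNA from a pool of mice, so the error given is the spread between pools. The labels give C57BL/6 as the strain of both genotypes, and the strain of origin of the targeted allele and the number of backcross generations are not given in the sources used here.

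CD44 is the surface receptor by which AMs bind the matrix polymer hyaluronan. In a mouse line made by gene targeting, the sequence next to the targeted gene is inherited together with it, and backcrossing shortens this linked segment from both ends as crossovers occur. The size of such a segment in a given line depends on its breeding. Loss of CD44 and any linked sequence are shared by all CD44-/- samples here, and in this design they cannot be told apart.

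Cd44, on chromosome 2 of mm10 (GRCm38) from 102811142 to 102901665, had 540, 535 and 527 FPKM in CD44+/+ replicates 1, 2 and 3 and 54.7, 54.5 and 51.4 FPKM in CD44-/- replicates 1, 2 and 3. The targeted gene thus matched the label of every sample (log2 fold change -3.32, adjusted p = 4.19e-09). The smallest steps between low values gave depths of 0.812 to 1.05 relative to CD44+/+ replicate 1, and absolute depth is unknown. AM markers were abundant in all samples, with Itgax (CD11c) at 435 to 495 FPKM and Siglecf at 243 to 268 FPKM. Airway secretory cell markers summed to 811 to 1333 FPKM in CD44+/+ and 620 to 1044 FPKM in CD44-/- samples, and alveolar type 2 markers to 60.9 to 74.8 and 63.7 to 142 FPKM. Erythroid markers summed to 2.12 to 17.3 FPKM in CD44+/+ and 2.89 to 56.5 FPKM in CD44-/- samples, with the highest sum in CD44-/- replicate 2. Neutrophil markers summed to 33.6 to 79.4 and 45.8 to 52.7 FPKM, with Ngp at 0, and lymphocyte markers to 0.401 to 0.999 and 0.452 to 0.632 FPKM. The sums of these lists overlapped between genotypes, as did that of 11 AM markers (15692 to 18281 and 14834 to 18937 FPKM), and no listed marker passed an adjusted p of 0.05. Of 4 type 2 markers tested, 2 had an unadjusted p under 0.05 and Sftpb did not overlap (1.26 to 2.13 against 2.32 to 6.53 FPKM), while Napsa had 47.3 to 61.7 FPKM. Their sum was highest in CD44-/- replicate 3, where Sftpc had 74.2 FPKM, beside 6.83 to 22.8 FPKM in the other samples. No overlap was also seen in 3 of 11 AM markers (Itgax, Mrc1 and Lpl) and 1 of 5 neutrophil markers tested (Csf3r, with an unadjusted p of 0.0176), beside 11.6% of all genes tested. The part of these markers in the results was not tested.

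None of the 43 genes near Cd44 passed an adjusted p of 0.05 in limma, which was fitted on log2(FPKM + 0.1) over all 10800 genes, where 12 genes passed (0.111%). That number was 36 without CD44+/+ replicate 1, 22 without CD44-/- replicate 1, 7 without CD44+/+ replicate 2, 6 without CD44-/- replicate 2 and 8 without CD44-/- replicate 3, with none near Cd44 in any of these. At an unadjusted p under 0.05 there were 7 of 43 (16.3%), beside 7.69% of all genes tested. Of these 7 genes, 5 were higher in CD44-/- AMs (Depdc7, Tcp11l1, Ccdc34, Commd9 and Pdhx) and 2 were lower (2810002D19Rik and Api5), beside 4.75% and 2.94% of all genes. The count was 4 without CD44-/- replicate 3. In these bulk samples fewer cells that express a gene and less of its RNA per cell cannot be told apart. No overlap between the genotypes was seen in 9 of the 43 (20.9%), beside 11.6% of all genes tested. Of these 9, 5 were higher in CD44-/- AMs and 4 lower, beside 6.75% and 4.88% of all genes. These shares are descriptions, since genes within a chromosome segment are not independent replicates, and 1 of the 43, Depdc7, reached the limit of 0.5 FPKM only through its CD44-/- values. Leaving out Depdc7, a choice made after the data were seen, gave 6 of 42 (14.3%) at an unadjusted p under 0.05, and 8 of 42 (19%) without overlap.

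**Figure D1:**
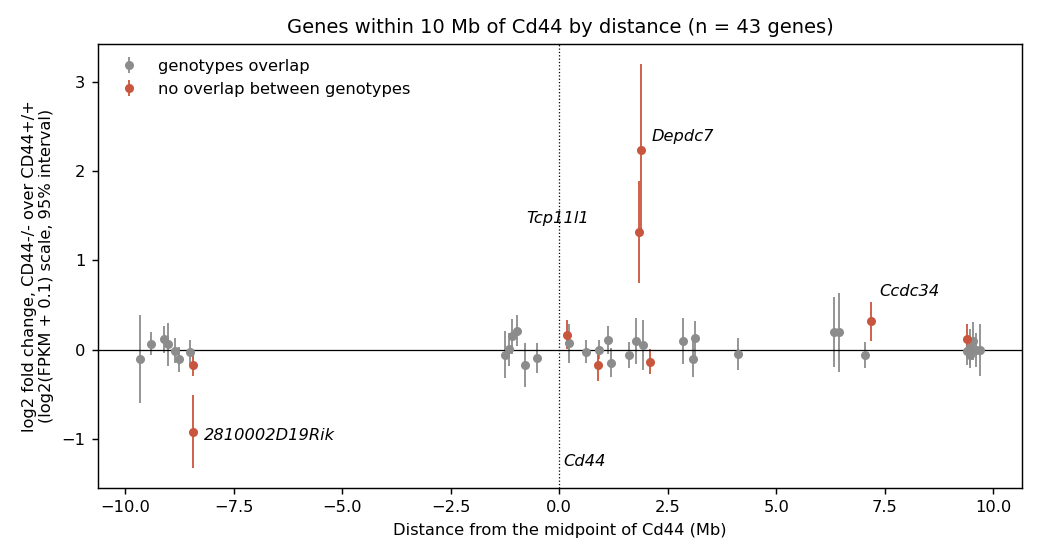
Log2 fold change of CD44-/- over CD44+/+ AMs for the 43 genes, on the log2(FPKM + 0.1) scale with 95% intervals, against the distance of each gene from Cd44 in Mb. Depdc7 (2.23) and Tcp11l1 (1.32) stand close together, 1.88 and 1.84 Mb after Cd44, 2810002D19Rik (-0.91) stands 8.45 Mb before it, and the other 40 genes lie between -0.17 and 0.32.

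Depdc7 and Tcp11l1, next to each other on the minus strand among the genes over 0.5 FPKM, had the largest positive differences. Depdc7 encodes a DEP domain protein, and Tcp11l1 is named for its likeness to the t-complex protein TCP11. Depdc7 lies on chromosome 2 from 104721787 to 104742801, and Tcp11l1 from 104679980 to 104712162. In the GENCODE annotation 9.61 kb lie between the end of Depdc7 and the start of Tcp11l1, and this stretch holds Pin1rt1, also on the minus strand, which had 0.0576 FPKM in CD44+/+ replicate 1 and was listed at 0 in the other samples.

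Depdc7 had 0.133, 0.0711 and 0.155 FPKM in CD44+/+ replicates 1, 2 and 3 and 1.78, 0.641 and 0.659 FPKM in CD44-/- replicates 1, 2 and 3. Every CD44-/- value lay above every CD44+/+ value, and CD44-/- replicate 1 stood well above the other two of its genotype. CD44+/+ AMs averaged 0.120 ± 0.0435 FPKM (SD, n = 3) and CD44-/- AMs 8.58 times as much, 1.03 ± 0.652 FPKM (SD, n = 3). On the log2 scale this was 2.23 (standard error 0.42, 95% interval 1.27 to 3.20), with an adjusted p of 0.158 and an unadjusted p of 0.000602. Without CD44-/- replicate 1 the ratio was 5.43 and the log2 fold change 1.79. Since the CD44+/+ values lie near the 0.1 added before the log, the fold change was 0.81 with a pseudocount of 1 and 2.89 with one of 0.01.

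Tcp11l1 had 0.907, 0.626 and 1.25 FPKM in CD44+/+ replicates 1, 2 and 3 and 2.87, 2.49 and 1.89 FPKM in CD44-/- replicates 1, 2 and 3. Here too the genotypes did not overlap. CD44+/+ AMs averaged 0.928 ± 0.313 FPKM (SD, n = 3) and CD44-/- AMs 2.61 times as much, 2.42 ± 0.494 FPKM (SD, n = 3). On the log2 scale the difference was 1.32 (standard error 0.25, 95% interval 0.75 to 1.89, adjusted p = 0.158, unadjusted p = 0.000624), and 0.83 with a pseudocount of 1. For both genes the highest value was that of CD44-/- replicate 1 and the lowest that of CD44+/+ replicate 2.

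The expressed genes on either side of this pair had small differences. Cstf3, a subunit of a factor that acts in the cleavage of the 3′ ends of pre-mRNAs, lies 1.77 Mb after Cd44. Its values were 9.35 ± 1.49 FPKM (SD, n = 3) in CD44+/+ and 9.93 ± 0.181 FPKM (SD, n = 3) in CD44-/- AMs. In GENCODE the annotated span of Tcp11l1 runs into Cstf3 on the opposite strand over 8142 bases, while the deposited loci of these genes do not overlap. The study names a stranded library kit, and whether the counting used strand is not given in the sources used here. Qser1, on the other side of Depdc7, had 2.54 ± 0.272 and 2.64 ± 0.19 FPKM (SD, n = 3 for both genotypes), a log2 fold change of 0.06 (95% interval -0.23 to 0.34).

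The 250 bases before the annotated starts of Depdc7 and Tcp11l1 are shown because these genes had the largest positive differences. They are from RefSeq (GRCm38.p6), minus strand, at chr2:104742858-104743107 and chr2:104712163-104712412, written 5′ to 3′ with matches to the GC box, GGGCGG on either strand, in capitals.
Depdc7: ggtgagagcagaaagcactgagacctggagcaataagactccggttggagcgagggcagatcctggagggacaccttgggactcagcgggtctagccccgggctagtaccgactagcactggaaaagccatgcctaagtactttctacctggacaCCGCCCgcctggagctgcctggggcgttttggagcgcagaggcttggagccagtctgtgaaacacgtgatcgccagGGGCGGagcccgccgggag
Tcp11l1: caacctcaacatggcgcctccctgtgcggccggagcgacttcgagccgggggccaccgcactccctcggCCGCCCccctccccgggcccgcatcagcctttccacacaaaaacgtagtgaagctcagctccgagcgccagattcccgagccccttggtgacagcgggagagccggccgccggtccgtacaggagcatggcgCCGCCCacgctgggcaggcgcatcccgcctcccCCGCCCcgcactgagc
The window of Depdc7 held 2 matches and that of Tcp11l1 held 3. Of all 32851 such windows 32.7% held at least 1 match, and of the 49 windows of 37 genes near Cd44 that could be matched by symbol 46.9% did. Neither sequence held the CCAAT box (CCAAT), the TATA box (TATAAA) or the ETS motif CGGAAG on either strand, motifs found in 33.8%, 12.4% and 13.6% of all windows and in 34.7%, 4.08% and 32.7% of the 49 windows of nearby genes. Their base composition was 62% and 72% G or C, with 14 and 27 CpG dinucleotides. The median over all windows was 52.4% and 6, and over the windows of the nearby genes 56.4% and 14. All windows were taken whether or not the gene was expressed, while the nearby genes were chosen at 0.5 FPKM or more. The 2 sets of windows are thus not like for like, and their differences were not tested.

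The largest negative difference was that of 2810002D19Rik, a non-coding transcript on the plus strand from 94406707 to 94411680. It had 2.76, 2.48 and 1.91 FPKM in CD44+/+ replicates 1, 2 and 3 and 1.32, 1.28 and 1.03 FPKM in CD44-/- replicates 1, 2 and 3. No value of one genotype fell within the range of the other. CD44+/+ AMs had a mean of 2.38 ± 0.433 FPKM (SD, n = 3) and CD44-/- AMs one of 1.21 ± 0.157 FPKM (SD, n = 3), or 50.8% of the former. On the log2 scale the difference was -0.91 (standard error 0.18, 95% interval -1.32 to -0.51, adjusted p = 0.158, unadjusted p = 0.000704), and -0.61 with a pseudocount of 1.

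This transcript starts next to Ttc17, which is read in the opposite direction, and ends next to the end of Api5. Ttc17, which encodes a tetratricopeptide repeat protein, had 12.2, 12 and 11.9 FPKM in CD44+/+ and 11.7, 12.1 and 11.7 FPKM in CD44-/- replicates 1, 2 and 3. Its genotypes overlapped, with a log2 fold change of -0.02 (95% interval -0.16 to 0.11). Api5, an inhibitor of apoptosis, lies on the minus strand from 94411727 to 94438186 and had 67.0, 60.7 and 60.4 FPKM in CD44+/+ and 57.3, 55.5 and 54.3 FPKM in CD44-/- replicates 1, 2 and 3. No CD44-/- value of Api5 reached the lowest CD44+/+ value, and the difference was -0.17 on the log2 scale (standard error 0.06, 95% interval -0.30 to -0.04, adjusted p = 0.496, unadjusted p = 0.0168). In GENCODE 2810002D19Rik shares 539 bases with Ttc17 and 1 with Api5, and the 3 deposited loci do not overlap.

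**Figure D2:**
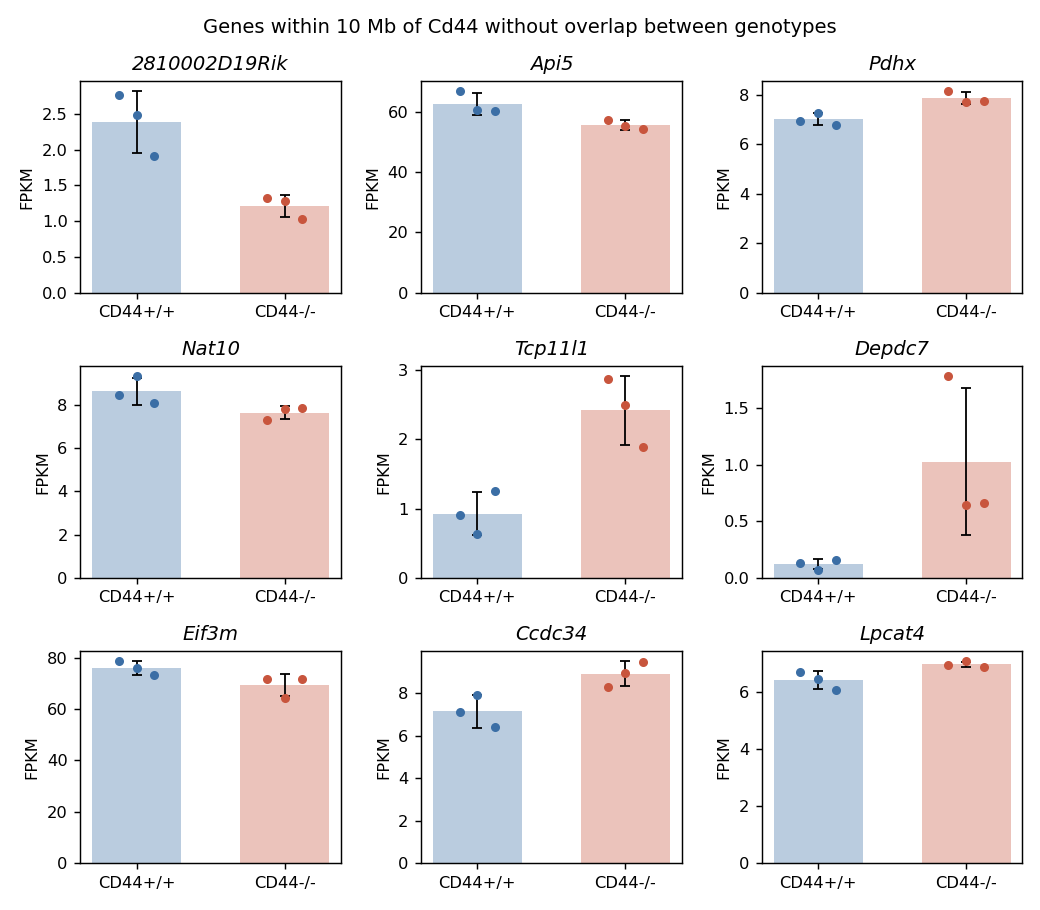
FPKM in each sample (points) with the genotype mean (bar) and SD (error bar, n = 3) for the 9 genes near Cd44 whose genotypes did not overlap, in order along the chromosome. Depdc7, Tcp11l1 and 2810002D19Rik show wide gaps at 3 FPKM or less, and the other 6 genes show narrow gaps relative to their level.

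On the side before Cd44, the 5 nearest expressed genes were Trim44, Ldlrad3, Commd9, Prr5l and Traf6, at 0.506 to 1.17 Mb. Trim44, a regulator of ubiquitination, had 17.2, 15.6 and 14.7 FPKM in CD44+/+ and 15.3, 14.9 and 14.2 FPKM in CD44-/- AMs, with overlap and a log2 fold change of -0.09 (95% interval -0.26 to 0.07). Ldlrad3, a membrane protein with LDL receptor type repeats, had 6.38 ± 0.54 FPKM and 5.67 ± 0.668 FPKM (SD, n = 3 each), a log2 fold change of -0.17 (95% interval -0.42 to 0.08). Commd9, of the family of COMM domain proteins that act in endosomal sorting, had 20.3, 21.9 and 19.9 FPKM in CD44+/+ and 21.9, 24.2 and 26.2 FPKM in CD44-/- replicates 1, 2 and 3. The lowest CD44-/- value of Commd9 equalled the highest CD44+/+ value at the precision deposited, and the difference was 0.22 on the log2 scale (standard error 0.08, adjusted p = 0.528, unadjusted p = 0.0219).

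Prr5l, which binds the kinase complex mTORC2, had 23.4 ± 2.17 and 26.0 ± 2.25 FPKM (SD, n = 3 each), with a log2 fold change of 0.15 (95% interval -0.05 to 0.35). Traf6, the ubiquitin ligase that passes on signals from Toll-like and IL-1 receptors, had 6.32, 6.22 and 6.07 FPKM in CD44+/+ and 6.70, 6.10 and 5.91 FPKM in CD44-/- AMs. Its genotypes overlapped, and the log2 fold change of 0.01 had a 95% interval of -0.18 to 0.19. The values of Traf6 thus differed by less than the spread between pools.

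After Cd44 the nearest expressed genes were Pdhx, Apip, Cat, Nat10 and Caprin1, at 0.191 to 0.924 Mb. Pdhx, a component of the pyruvate dehydrogenase complex, lies from 103021057 to 103073513 and is the expressed gene nearest to Cd44. It had 6.95, 7.27 and 6.78 FPKM in CD44+/+ and 8.14, 7.71 and 7.76 FPKM in CD44-/- replicates 1, 2 and 3, without overlap. For Pdhx the difference was 0.17 on the log2 scale (standard error 0.07, adjusted p = 0.645, unadjusted p = 0.0461), and its unadjusted p was 0.0547 with the replicate number as a block. With that block Prr5l, Eif3m and Ext2 came under 0.05, at unadjusted p = 0.0186, 0.0469 and 0.0471 (adjusted p = 0.394, 0.506 and 0.506), so that the count of 7 became 9. Apip, an enzyme of methionine salvage that starts beside Pdhx on the other strand, had 15.7 ± 2.00 and 16.5 ± 0.808 FPKM (SD, n = 3 each) with overlap.

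Cat, which encodes the peroxisomal enzyme catalase, was the gene of highest expression near Cd44. It had 106, 110 and 120 FPKM in CD44+/+ and 113, 108 and 110 FPKM in CD44-/- AMs, with overlap (log2 fold change -0.02, 95% interval -0.15 to 0.11). Nat10, an RNA acetyltransferase, had 8.63 ± 0.628 and 7.65 ± 0.312 FPKM (SD, n = 3 each), and its genotypes did not overlap (log2 fold change -0.17, 95% interval -0.35 to 0.01, adjusted p = 0.682). Caprin1, an RNA-binding protein of stress granules, had 95.003 ± 3.03 and 95.02 ± 0.797 FPKM (SD, n = 3 each), and its 95% interval of -0.10 to 0.11 around a log2 fold change of 0.00 was the narrowest of the 43.

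Among the genes nearest to Cd44 that stayed under the limit was Slc1a2, a glutamate transporter of astrocytes whose locus is 0.132 Mb from Cd44. It had 0.0548 and 0.00444 FPKM in CD44+/+ replicates 1 and 3, was listed at 0 in replicate 2, and had 0.21, 0.119 and 0.24 FPKM in CD44-/- replicates 1, 2 and 3. These values did not overlap, and they were chosen for mention after they were seen. In all, 97 genes of the window were under 0.5 FPKM, of which 73 were listed at 0 in all 6 samples, among them all 37 olfactory receptor genes. The gene just under the limit was Ehf, an epithelial transcription factor, with a mean of 0.325 FPKM and values from 0.251 to 0.430 FPKM in both genotypes, and the one just over it was Depdc7, with a mean of 0.573 FPKM. At the 10 Mb limit Trp53i11 (9.66 Mb before Cd44) and Aven (9.71 Mb after) lay inside, and Slc35c1 (10.4 Mb before) and Fmn1 (10.6 Mb after) outside.

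Trp53i11, named for its induction by p53, varied widely between pools. It had 14.6, 13.3 and 13.5 FPKM in CD44+/+ and 8.51, 17.1 and 14.5 FPKM in CD44-/- replicates 1, 2 and 3, so that the lowest and the highest value both came from CD44-/- pools. Its log2 fold change was -0.10 (95% interval -0.60 to 0.39), and 0.19 without CD44-/- replicate 1. Aven, an inhibitor of apoptosis, had 14.8 ± 2.46 and 14.7 ± 1.87 FPKM (SD, n = 3 each) with a log2 fold change of -0.00065, and 0.12 without CD44+/+ replicate 1.

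The list of mitochondrial and metabolic enzymes, drawn up by general role, held 10 of the genes near Cd44. Among the 10, Pdhx is a component of an enzyme complex and the place of Alkbh3 is uncertain. The log2 fold changes of the 10 ran from -0.11 to 0.20 with a median of 0.07, 6 positive and 4 negative. The genotypes of 2 of the 10 did not overlap (Pdhx and Lpcat4), beside 11.6% of all genes tested. Lpcat4, which puts fatty acids onto lysophospholipids, had 6.42 ± 0.317 and 6.97 ± 0.0917 FPKM (SD, n = 3 each), a log2 fold change of 0.12 (95% interval -0.05 to 0.29, adjusted p = 0.827). Hsd17b12, which acts in the elongation of very long fatty acids, had 86.9, 87.7 and 84.7 FPKM in CD44+/+ and 86.4, 73.9 and 80.8 FPKM in CD44-/- AMs, with overlap (log2 fold change -0.11, 95% interval -0.25 to 0.03). Ext2, an enzyme of heparan sulphate synthesis, had 36.0 ± 1.76 and 39.1 ± 2.75 FPKM (SD, n = 3 each). The demethylase Alkbh3 had 13.8 FPKM in all CD44+/+ samples and 14.3, 13.1 and 13.7 FPKM in CD44-/- AMs. The other enzymes of the list, Accs, the mitochondrial peptidase Immp1l and the methyltransferase Mettl15, had log2 fold changes of 0.06, -0.10 and 0.20 with overlap.

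RNA, translation and nuclear proteins made up 12 of the genes, 7 with positive and 5 with negative log2 fold changes. At an unadjusted p under 0.05 there were Tcp11l1, whose place in this list is uncertain, on the higher side and Api5 on the lower side, beside 4.75% and 2.94% of all genes tested. No overlap was seen in 4 of the 12, beside 11.6%. Eif3m, a subunit of translation initiation factor eIF3, had 78.6, 75.9 and 73.4 FPKM in CD44+/+ and 71.9, 64.4 and 71.9 FPKM in CD44-/- AMs, without overlap (log2 fold change -0.13, 95% interval -0.27 to 0.0036, adjusted p = 0.667). Lmo2, a cofactor of transcription in blood cell development, had 31.04 ± 1.70 and 33.5 ± 2.29 FPKM (SD, n = 3 each) with overlap. Nop10, a part of the particles that guide pseudouridylation, had 64.4 ± 2.86 and 64.1 ± 5.40 FPKM (SD, n = 3 each). Elp4 (a subunit of Elongator), the J domain protein Dnajc24 and Arl14ep had log2 fold changes of 0.10, 0.13 and -0.05, and their genotypes overlapped.

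In the list of ubiquitin, kinase and immune signalling, 7 genes were expressed and the genotypes overlapped in all 7, where 11.6% of all genes tested had no overlap. Of the 7, 1 (Commd9) had an unadjusted p under 0.05 on the higher side, beside 4.75% of all genes. Their log2 fold changes ran from -0.14 to 0.22, and each of the 7 had a 95% interval inside 0.5 of zero. Fbxo3, a substrate receptor of ubiquitin ligases, had 24.7 ± 0.906 and 22.3 ± 1.79 FPKM (SD, n = 3 each), and the kinase Hipk3 had 23.7 ± 0.593 and 22.8 ± 1.53 FPKM (SD, n = 3 each). Of the list of membrane and trafficking proteins 6 were matched and expressed, all 6 with overlap and with log2 fold changes from -0.17 to 0.07. None of the 6 had an unadjusted p under 0.05 (7.69% of all genes tested). Trp53i11 stood in this list under the symbol Tp53i11, was not matched and is counted in no list. The tetraspanin Cd82 had 82.8, 84.1 and 87.2 FPKM in CD44+/+ and 95.2, 87.3 and 84.3 FPKM in CD44-/- AMs, with overlap (log2 fold change 0.07, 95% interval -0.06 to 0.20). Emc4, a subunit of the complex that inserts proteins into the endoplasmic reticulum, had a log2 fold change of -0.06, and the scaffold protein Lin7c also had -0.06. Emc4 lies in a merged deposited locus and overlaps another annotated gene, so its reads may be split. Emc7, of the same complex as Emc4 but in no list, had 119, 97.0 and 102 FPKM in CD44+/+ and 114, 99.9 and 104 FPKM in CD44-/- AMs (log2 fold change 0.0029).

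The 3 genes of the cytoskeleton and mitosis list had positive log2 fold changes, as had 55.8% of all genes tested. Of the 3, 1 (Ccdc34) had an unadjusted p under 0.05 and no overlap, beside 4.75% and 6.75% of all genes on the higher side. Ccdc34, a coiled-coil protein 7.18 Mb after Cd44 from 110017817 to 110050479, had 7.12, 7.94 and 6.39 FPKM in CD44+/+ and 8.32, 8.96 and 9.49 FPKM in CD44-/- replicates 1, 2 and 3. All CD44-/- values of Ccdc34 lay above the CD44+/+ values, by 0.32 on the log2 scale (standard error 0.10, 95% interval 0.10 to 0.54, adjusted p = 0.427, unadjusted p = 0.01). The mitotic kinesin Kif18a had 2.51, 2.62 and 1.94 FPKM in CD44+/+ and 2.02, 3.01 and 3.21 FPKM in CD44-/- AMs, with overlap and a 95% interval of -0.24 to 0.64. Katnbl1, related to the microtubule-severing protein katanin, had a log2 fold change of 0.10 with overlap (95% interval -0.12 to 0.31). Of the genes in no list, B230118H07Rik, whose annotated span holds the antigen receptor recombination genes Rag1 and Rag2, had 3.22 ± 0.287 and 3.10 ± 0.273 FPKM (SD, n = 3 each).

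**Figure D3:**
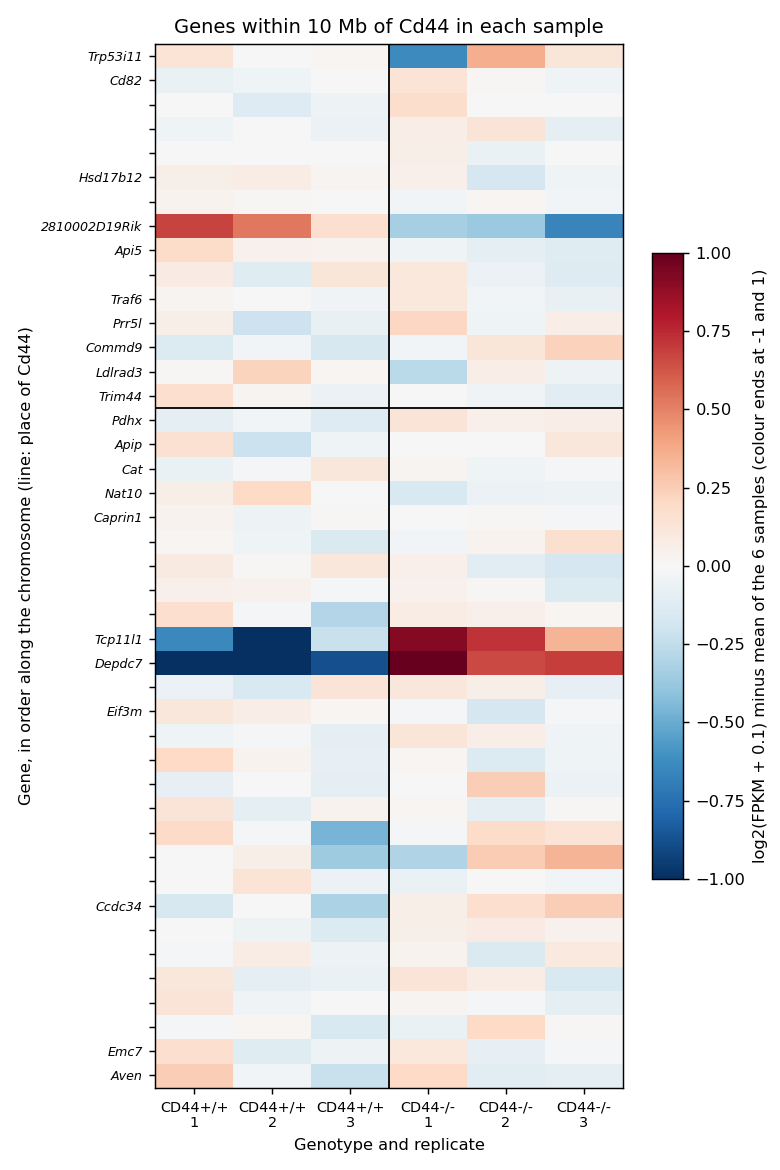
Each of the 43 genes in each sample, as log2(FPKM + 0.1) minus its mean over the 6 samples, in order along the chromosome from top to bottom with lines at the place of Cd44 and between the genotypes. Rows of strong colour that change sides at the genotype line are 2810002D19Rik, Tcp11l1 and Depdc7, and Trp53i11 shows 1 strongly low CD44-/- sample. Names are given at the side for the 21 genes chosen by the rules stated with the processing.

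Over the 43 genes, 23 log2 fold changes were positive and 20 negative, with a median of 0.0029, beside 0.01 over all genes tested, of which 55.8% were positive. Summed FPKM of the 43 genes was 1112 to 1166 in CD44+/+ and 1097 to 1157 in CD44-/- samples. The sums of these genes, Cd44 left out, thus overlapped between the genotypes. The median absolute log2 fold change was 0.0987, beside 0.0655 over all genes tested and 0.0694 over the other 818 genes of chromosome 2. In 36 of the 43 genes (83.7%) the 95% interval lay inside 0.5 of zero on the log2 scale, as in 81.7% of all genes.

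Precision followed expression. Among the 17 genes at 20 FPKM or more, the median standard error was 0.07 and the largest absolute log2 fold change was 0.22. All 17 intervals lay inside 0.5 of zero, as did 3678 of 3816 for all genes tested at that level. Among the 9 genes under 5 FPKM the median standard error was 0.17. There 4 of the 9 intervals lay inside 0.5 of zero, beside 1357 of 2912 for all genes tested. The median absolute log2 fold change was 0.197 under 5 FPKM (Depdc7 included), 0.0987 at 5 to 20 FPKM and 0.0682 at 20 FPKM or more. Over all genes tested it was 0.128, 0.0621 and 0.0464 at these levels. The 3 genes with an absolute log2 fold change over 0.5 (6.98%, or 2 of 42 and 4.76% without Depdc7, beside 2.55% of all genes tested) all had a mean under 2 FPKM.

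**Figure D4:**
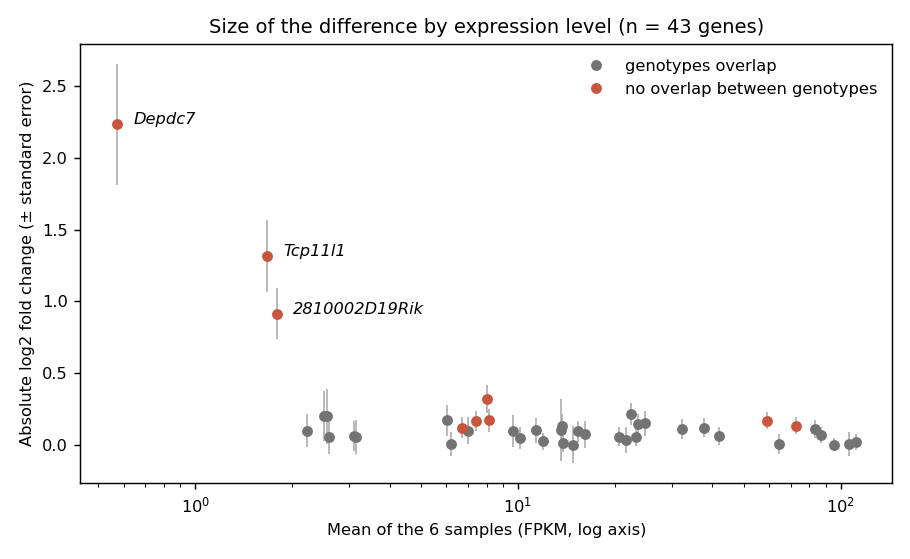
Absolute log2 fold change with its standard error against the mean over the 6 samples (FPKM, log axis) for the 43 genes. The 3 genes above 0.5 have the 3 lowest means, from 0.573 to 1.80 FPKM, while genes at 20 FPKM or more stay at 0.22 or less.

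Differences were set against the distance from Cd44. The 18 genes within 2 Mb had a median absolute log2 fold change of 0.10, the 5 genes at 2 to 5 Mb also 0.10, and the 20 genes at 5 to 10 Mb 0.08. At an unadjusted p under 0.05 there were 4 of 18, 0 of 5 and 3 of 20 genes in these classes, beside 7.69% of all genes tested. The 4 of 18 count Depdc7, which reached the limit of 0.5 FPKM only through its CD44-/- values, and a trend with distance was not tested. Over the 43 genes Spearman's rho of distance and absolute log2 fold change was -0.24 and Pearson's r was -0.14, and rho of mean FPKM and absolute log2 fold change was -0.40. The genes share the samples and, in part, loci, and Depdc7 is among them, so these values are a description.

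Farther out on chromosome 2, 5 genes other than Cd44 passed an adjusted p of 0.05, and all 5 lay before Cd44, at a distance of 34.5 Mb or more. Among them were Stk39, Ly75, Tanc1 and Olfml2a, named here after their values were seen. This is 5 of 818 genes (0.611%) outside the window, beside 6 of 9938 (0.0604%) on the other chromosomes. At an unadjusted p under 0.001 stood 3 of the 43 genes near Cd44 (6.98%), or 2 of 42 (4.76%) without Depdc7, beside 0.481% of all genes tested. Chromosome 2 without Cd44 held 14 such genes, of which 11 of 399 tested lay before Cd44 and 3 of 462 after it. The pair Depdc7 and Tcp11l1 made up 2 of those 3, and 2810002D19Rik was 1 of the 11. In bins of 10 Mb the share of genes with an unadjusted p under 0.05 was 20% of 15 genes just before Cd44 and 14.3% of 28 just after it. Before Cd44 it was 13.0% of 46 genes at 10 to 20 Mb, 22.2% to 26.9% in the 3 bins from 20 to 50 Mb and 0% to 10.5% in the 5 bins from 50 to 100 Mb. After Cd44 it was 11.1% of 81 genes at 10 to 20 Mb, and beyond 20 Mb after Cd44 it ran from 3.45% to 8.33%. The 28 genes just after Cd44 include Depdc7, which reached the limit of 0.5 FPKM only through its CD44-/- values.

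**Figure D5:**
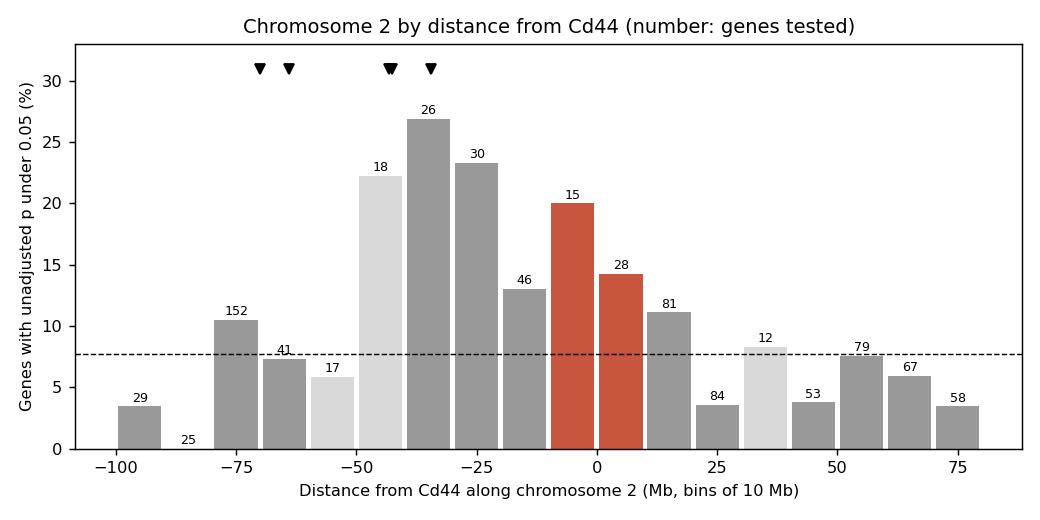
Share of tested genes with an unadjusted p under 0.05 in 10 Mb bins of chromosome 2 by distance from Cd44, with the 20 Mb around Cd44 in red, bins of fewer than 20 genes outside it in light grey, the number of genes above each bar and the share over all genes tested (7.69%) as a dashed line. Triangles mark the 5 genes with an adjusted p under 0.05, all of them to the left of Cd44 and none within 10 Mb of it. The red bin to the right of Cd44 counts Depdc7.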

How the data were processed

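Paired-end reads were aligned by the authors to mm10 with STAR, and the deposited table holds FPKM values from Cufflinks for each of the 6 samples. The Cuffdiff results in the same table were not used. Its columns of names and positions are ordered apart from the values (0 rows in which both name columns match), so positions were looked up by gene name and given with a first base of 1. For overlapping genes the locus is that of the merged region. Of the identifiers, 101 hold several names, and 1 gene lacking a value was left out. Gene types and strand came from GENCODE vM21, and sequences from RefSeq GRCm38.p6.

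Genes whose mean reached 0.5 FPKM were compared on log2(FPKM + 0.1) with limma 3.58.1 in R 4.3.3 (lmFit and eBayes with trend, two-sided, 3 against 3 samples, Benjamini-Hochberg adjustment over all genes). Positive log2 fold changes mean higher in CD44-/-. An exact two-sided permutation test cannot go below 0.1 here, the value reached by each gene without overlap. The methods describe the pools as independent and of unequal numbers of mice, and p-values measure the spread between pools. The code was tested on simulated data. Genes with an unadjusted p under 0.05 and no overlap, and the 5 nearest to Cd44 on each side, were named with their values. So were the 6 of highest mean, the 5 of largest absolute log2 fold change and those just inside the limits. The values are those of each sample or the mean and SD, and some other genes are given in the same way. The genes and lists were chosen with earlier results of these data known. Promoter entries were not matched for 6 genes, and results for some genes are not reported here. Of the marker lists, Ear2, Hba-a1, Ly6g and Trac were not matched. The labels do not say that same-numbered samples were collected together, but their deviations from the genotype means correlated over all genes (0.212, 0.132 and 0.211), so the number was used as a block in 1 alternative. Absolute depth is unknown, so counting error was not estimated, and relative depth came from the steps between values under 0.05 FPKM.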

Additional observations from a re-analysis of the deposited data

How the results depend on the processing

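No gene within 10 Mb of Cd44 passed an adjusted p of 0.05 under any of the 15 other settings of the comparison, and the lowest adjusted p was 0.0834 (Depdc7, robust eBayes). With the replicate block, 9 of the 43 genes had an unadjusted p under 0.05 and 9 genes of the whole table passed, and no gene near Cd44 passed an adjusted p of 0.05. Depdc7, Tcp11l1 and 2810002D19Rik kept their direction in all settings that held them. The count at an unadjusted p under 0.05 was 4 to 10 with single samples left out, lowest without CD44-/- replicate 3. It was 4 of 23 genes (17.4%) with a window of 5 Mb, 22 of 170 (12.9%) with 20 Mb and 79 of 861 (9.18%) over all of chromosome 2, where 5 genes were called, beside 7.69% of all genes tested. Each of these counts includes Depdc7, which reached the limit of 0.5 FPKM only through its CD44-/- values. The count over all genes was 7 without a filter and 6 to 36 with single samples left out. The median absolute log2 fold change was 0.0893 with a pseudocount of 1, 0.11 without a filter, 0.0738 with 20 Mb, 0.0695 over chromosome 2 and 0.0804 to 0.113 with single samples left out, where the median log2 fold change was -0.016 to 0.039. Signs turned in 7 of the 21 named genes, all with small differences. Median-ratio scaling moved the median of all genes from 0.013 to -0.0014, and with it Caprin1 had -0.014, Emc7 -0.012 and Traf6 -0.0091, and after quantile normalization, where the median was -0.0043, they had -0.00018, -0.0030 and -0.020. The cause of the other turns was not tested. With single samples left out, Caprin1 lay between -0.025 and 0.020, Emc7 between -0.058 and 0.089, Traf6 between -0.047 and 0.043, Aven between -0.11 and 0.12, Apip between -0.018 and 0.16, Cat between -0.059 and 0.031 and Trp53i11 between -0.31 and 0.19. The median standard error of the 9 genes under 5 FPKM was 0.17, so small differences in these genes could not be detected with 3 pools per genotype.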
